A study of Mus musculus with 9 samples.

Results

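The genes examined were 10 dual-specificity phosphatases, Dusp1, Dusp2, Dusp3, Dusp4, Dusp5, Dusp6, Dusp7, Dusp10, Dusp16 and Dusp22, chosen by name out of 46072 genes in the count and FPKM tables. Each had 1 row in both tables, and all 10 received an adjusted p in every contrast, so no member was lost to a filter on low values. RNA was sequenced from monocytes that had been isolated from mouse spleens by negative selection, in 9 libraries, 3 for each of 3 groups, from female C57BL/6 mice of 8 to 10 weeks. Con mice received water by gavage. Van mice received vancomycin, an antibiotic that is hardly absorbed from the gut, in gavages of 1 mg that added up to 2 mg a day for each mouse, over 6 days. VanLip mice received the same vancomycin and then the bacterial lipid L654, a TLR2 ligand, by retro-orbital injection. The gavages were followed by a rest without antibiotic, of 6 to 8 days per the labels and 8 days in the study's text on these libraries. The labels place these injections on days 7, 9 and 11 without saying from which day they count, and the study's text counts them from the start of the rest. The study's methods name PBS as the vehicle of its lipid injections, but the labels and its text on these libraries give the Con and Van mice no injection, so whether the injection itself differed between the groups is unclear.

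MAP kinases carry signals from surface receptors, among them the Toll-like receptors, into the nucleus, and they are active only when a threonine and a tyrosine of their activation loop are both phosphorylated. Dual-specificity phosphatases remove both phosphates and so end the signal; transcription of several of them is itself switched on by MAP kinase activity, which closes a negative feedback loop. The 10 genes fall into 4 kinds. Dusp1, Dusp2, Dusp4 and Dusp5 encode nuclear phosphatases that are induced as immediate early genes, Dusp6 and Dusp7 encode cytoplasmic phosphatases selective for ERK, Dusp10 and Dusp16 encode phosphatases that prefer JNK and p38, and Dusp3 and Dusp22 encode small atypical phosphatases that lack the kinase interaction motif of the others. In macrophages and monocytes Dusp1 is known as a brake on cytokine production after Toll-like receptor stimulation.

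The libraries differed in depth with group. Total counts of 43070361 to 61383806 in Con and Van stood beside 170503470 to 184720704 in VanLip. The commonest low count was 1.33 in every Con and Van library and 2.00 in every VanLip library, values that reads of 100 and 150 bases would give, and converted to fragments the depth was 16151385 to 23018927 against 42625868 to 46180176. Read length and depth therefore cannot be told apart from the VanLip group. The labelled cell type was checked against its markers: 7 of 7 monocyte markers were detected in every library with a summed level of 7715 to 10750 FPKM, while the neutrophil marker Ly6g was at 0 in every library and the summed B cell, T cell and NK cell markers stayed at or under 12.4, 5.85 and 0.771 FPKM. Neutrophil, platelet, dendritic cell, and eosinophil and basophil markers summed to at most 9.84, 21.7, 17.1 and 2.23 FPKM. In 4 of 4 erythroid markers, led by Hba-a1, the summed level was 56.8 to 114 FPKM in Con, 189 to 430 in Van and 155 to 640 in VanLip, and for the 3 red pulp macrophage markers it was 235 to 281, 311 to 387 and 262 to 320.

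Promoter sequence is shown for the 5 members whose values the comparisons turn on, since the inducible members of the family are known to be switched on through sites close to their start. The sequences are RefSeq's on GRCm38.p6, within the 250 bases before each start, and 9 of the 10 members had an entry (Dusp4 is named only). Capitals mark letters of the motifs searched on both strands: the cAMP response element TGACGTCA, the AP-1 site TGANTCA, the GC box GGGCGG, the TATA box TATAAA, the heat shock element core GAANNTTC, the CArG box and the NF-kB site. Bases that GENCODE M21 places in an untranslated region were left off, so that Dusp1 ends 48 bases and Dusp22 61 bases before its RefSeq start. Among the 5 shown, GENCODE begins the gene upstream of the RefSeq start in Dusp1, Dusp10 and Dusp22.
Dusp1, chr17:26508520-26508722, minus strand: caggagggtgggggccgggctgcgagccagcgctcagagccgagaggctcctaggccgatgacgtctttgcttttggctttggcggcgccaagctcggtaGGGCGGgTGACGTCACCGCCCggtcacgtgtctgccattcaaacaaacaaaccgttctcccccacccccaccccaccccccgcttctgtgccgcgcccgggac
Dusp7, chr9:106368382-106368631, plus strand: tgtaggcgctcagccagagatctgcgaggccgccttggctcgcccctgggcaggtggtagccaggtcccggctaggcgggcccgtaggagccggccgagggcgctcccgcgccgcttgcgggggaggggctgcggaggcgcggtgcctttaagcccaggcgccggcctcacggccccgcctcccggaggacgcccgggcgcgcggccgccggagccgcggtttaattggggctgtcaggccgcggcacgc
Dusp10, chr1:184034131-184034380, plus strand: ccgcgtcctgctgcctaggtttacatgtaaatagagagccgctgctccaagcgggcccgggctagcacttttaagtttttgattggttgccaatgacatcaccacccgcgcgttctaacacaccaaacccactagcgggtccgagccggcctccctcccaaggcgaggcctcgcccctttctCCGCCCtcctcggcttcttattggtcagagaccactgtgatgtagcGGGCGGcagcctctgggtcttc
Dusp16, chr6:134792629-134792878, minus strand: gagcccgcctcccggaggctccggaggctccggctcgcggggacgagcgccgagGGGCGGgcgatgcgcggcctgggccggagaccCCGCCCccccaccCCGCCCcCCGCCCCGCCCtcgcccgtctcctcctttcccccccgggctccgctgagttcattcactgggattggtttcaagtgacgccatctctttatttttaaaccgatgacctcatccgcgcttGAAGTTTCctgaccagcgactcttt
Dusp22, chr13:30659809-30659998, plus strand: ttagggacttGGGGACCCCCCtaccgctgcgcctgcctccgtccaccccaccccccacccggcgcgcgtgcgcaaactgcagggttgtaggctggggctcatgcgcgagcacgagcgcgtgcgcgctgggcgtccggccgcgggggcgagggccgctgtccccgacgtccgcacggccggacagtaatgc

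Dusp1 held 1 cAMP response element, at -143 to -136 from the start, flanked on either side by GC boxes at -150 to -145 and -135 to -130, and another GC box from -48 to -43 that runs past the printed end. A cAMP response element stood in 1.6% and a GC box in 32.9% of the 27025 promoters of the same length. The Dusp7 window held none of the 7 motifs and was 77.2% G and C, above 97.6% of those promoters, whose median was 52.0%. Dusp22 was as rich, at 77.6%, and held 2 NF-kB matches that overlap each other at -240 to -230 (7.0% of promoters hold 1 or more) and a GC box from -31 to -26, beyond the printed end. Dusp10 held 2 GC boxes and Dusp16 5, of which those at -144 to -139 and -139 to -134 share a base, together with 1 heat shock element core at -25 to -18 (6.8% of promoters). Among the members not printed, Dusp5 held 2 adjacent CArG boxes at -82 to -63, a motif found in 1.4% of promoters, along with 1 GC box, whereas Dusp2 and Dusp3 held 3 GC boxes each and Dusp6 none of the motifs. AP-1 sites and TATA boxes, present in 6.9% and 13.0% of promoters, were found in none of the 9.

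The members spanned a wide range of levels, in FPKM, a unit scaled by transcript length so that genes can be set side by side. Dusp1 (ENSMUSG00000024190; GRCm38 chromosome 17, 26505590 to 26562128, minus strand) was by far the most abundant, with a mean of 880 FPKM for Con (SD 274.5), 873 FPKM for Van (SD 139) and 639 FPKM for VanLip (SD 131, n = 3 throughout). The 9 libraries ran from 489 FPKM in VanLip replicate 1 to 1186 in Con replicate 2. It ranked 48 among 26108 detected genes by mean FPKM and made up 59.1% to 76.5% of the summed FPKM of the 10 members in each library. Its locus overlaps 2 annotated genes on the same strand (AC122252.4 and AC122252.1) and 2 on the opposite strand (Gm8225 and Ergic1), so its estimate may hold reads of these. Every other member lay below Dusp1 in all 9 libraries.

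Dusp5, an ERK-selective nuclear phosphatase (ENSMUSG00000034765; chromosome 19, 53529109 to 53542431), came next with a mean of 119 FPKM over the 9 libraries. Dusp2, known from activated leukocytes as PAC1 (ENSMUSG00000027368; chromosome 2, 127336159 to 127338376), had a mean of 71.2 FPKM, Dusp6, the main cytoplasmic ERK phosphatase (ENSMUSG00000019960; chromosome 10, 99263231 to 99267489), 55.4, and Dusp16, also called MKP-7 (ENSMUSG00000030203; chromosome 6, 134715468 to 134792625), 50.2. These 4 formed a band in which the ranges of neighbours overlapped, although Dusp5 was above Dusp2 in 9 of 9 libraries. Dusp2 was above Dusp6 in 8 of 9 libraries, Dusp6 above Dusp16 in 5 of 9, and Dusp16 above Dusp3 in 8 of 9. Dusp3, or VHR (ENSMUSG00000003518; chromosome 11, 101971143 to 101987013), and Dusp22, or JKAP (ENSMUSG00000069255; chromosome 13, 30659999 to 30711231), had means of 30.2 and 29.7 FPKM and could not be ordered, Dusp3 being the higher in 5 of 9 libraries.

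The low end was held by Dusp7, Dusp10 and Dusp4. Dusp7, or MKP-X (ENSMUSG00000053716; chromosome 9, 106368632 to 106375724), ranged from 5.90 to 14.7 FPKM, and Dusp10, or MKP-5 (ENSMUSG00000039384; chromosome 1, 184013302 to 184075636), from 2.80 to 7.35. Dusp4, or MKP-2 (ENSMUSG00000031530; chromosome 8, 34807297 to 34819894), stood at 0.507, 0.382 and 0.312 FPKM in Con, 0.449, 0.406 and 0.324 in Van and 0.429, 0.268 and 0.260 in VanLip. Within the nuclear inducible kind, then, the level differed between Dusp1 and Dusp4 by far more than any member differed between groups. The ranges over libraries stood apart between Dusp1 and Dusp5, between Dusp22 and Dusp7 and between Dusp10 and Dusp4, and overlapped between all other neighbours in the order. The summed level of the 10 members was 1260 ± 264 FPKM for Con (SD, n = 3), 1244 ± 92.8 for Van (n = 3) and 1000 ± 157 for VanLip (n = 3).

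**Figure D1:**
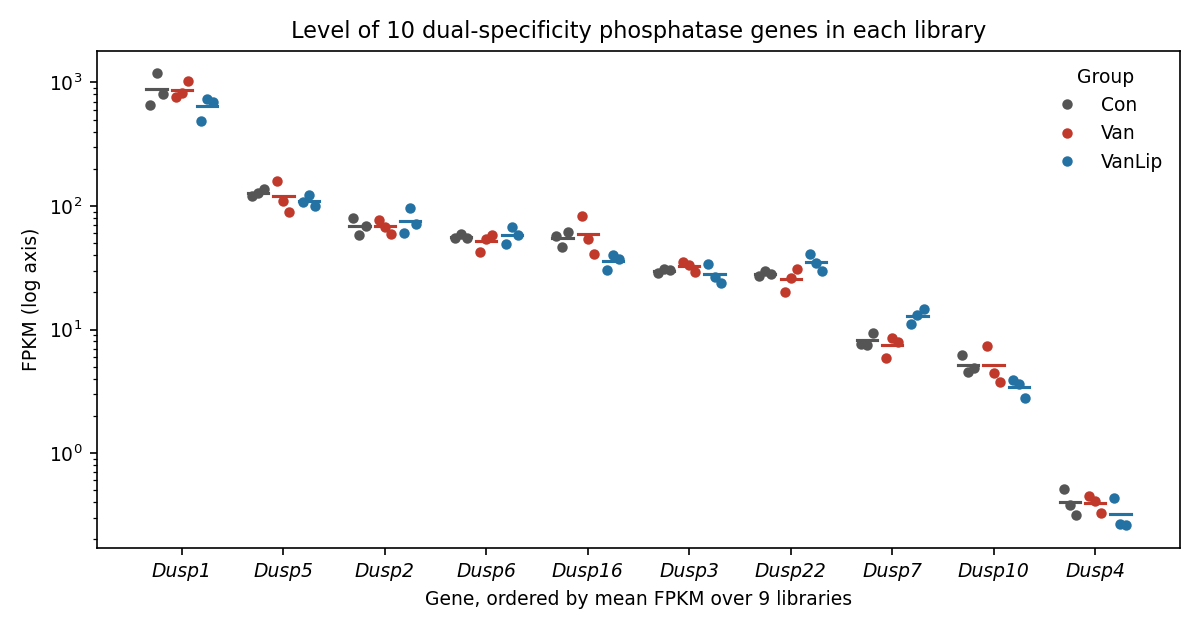
Level of the 10 phosphatase genes in each library, with FPKM on a log axis against the genes ordered by their mean. Points are libraries, 3 a group in Con, Van and VanLip, and short bars are group means; Dusp1 sits between 489 and 1186 FPKM in all 9 libraries, and Dusp4 at or under 0.507.

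The comparison of Van with Con asked whether vancomycin gavage alone altered these genes in splenic monocytes. No member was called, with DESeq2 at an adjusted p of 0.05 or under, where 4.34% of the 18516 genes with an adjusted p were. None reached an unadjusted p under 0.05 either (11.1% of 25420 genes did), edgeR called none (1.21% of genes), and the libraries of the groups overlapped in all 10 members, where 20.8% of genes did not overlap (10.4% with Van above and 10.3% with Van below). The log2 fold changes ran from -0.14 for Dusp6 to 0.10 for Dusp16, with a median of -0.03 beside -0.01 for all genes tested. The 95% intervals were narrow for Dusp3, at 0.897-fold to 1.27-fold, and Dusp6, at 0.761-fold to 1.08-fold. For Dusp1 the interval was 0.683-fold to 1.44-fold and for Dusp4 0.607-fold to 1.53-fold, so a change of moderate size in these would not have been detectable with 3 libraries a group.

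Behind the small mean differences the Van libraries were spread out, in several members with Van replicate 1 far from the others. That library was the highest or the lowest of the 3 Van libraries in 10 of 10 members by FPKM, highest for Dusp2, Dusp3, Dusp4, Dusp5, Dusp10 and Dusp16 and lowest for Dusp1, Dusp6, Dusp7 and Dusp22. Over 11710 genes with a mean of at least 1 FPKM the same library was at an edge in 70.8%. Van replicate 3 was at the opposite edge in 9 of the 10, all but Dusp7, which leaves Van replicate 2 between them. Van replicate 2 was at an edge in 1 of 10 members, against 60.8% of those genes. Van replicate 3 was at either edge in 68.4% of them. In the other groups VanLip replicate 1 was at an edge in 9 of 10 members (67.4% of those genes) and Con replicate 2 in 8 of 10 (64.3%). The coefficient of variation within Van was highest for the JNK and p38 phosphatases: the normalized count of Dusp16 was 39232, 25070 and 19107 in Van, a coefficient of variation of 37.2% against 12.8% in Con, and that of Dusp10 was 1955, 1136 and 1003, or 37.8% against 17.95%. Dusp5 followed, at 30.6% in Van against 5.24% in Con. Van replicate 1 had the lowest level of its group in 5 of 7 monocyte markers, Ly6c2, Ccr2, Lyz2, Itgam and Fcgr1, for instance 70.4 FPKM against 93.0 and 98.2 for Ccr2, the chemokine receptor of classical monocytes. Csf1r was highest there, 643 FPKM against 623 and 541, and Cx3cr1 lay between the others, 113 FPKM against 117 and 91.5. The sum of the 7 was 7715 FPKM against 9194 and 9566, most of it Lyz2 (6428 FPKM in that library). The part of these in the spread was not tested. Without Van replicate 1, Dusp5 was called and lay below Con, with a log2 value of -0.37 and a DESeq2 adjusted p of 0.0456, and Dusp16 turned from 0.10 to -0.23 without being called.

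VanLip was compared with Van as the groups that differ, by their labels, in the injected lipid. Dusp7 was the only member called, and it was higher in VanLip. Its normalized count was 3385, 3834 and 4370 in VanLip, 1790, 2523 and 2375 in Van, and 2328, 2220 and 2774 in Con. All 3 VanLip libraries thus stood above all 6 others, the lowest of them at 3385 and the highest of the others at 2774. VanLip exceeded Van by a log2 value of 0.79 with a standard error of 0.15, which is 1.73-fold with a 95% interval of 1.42-fold to 2.12-fold (DESeq2 adjusted p = 6.94e-06). That is 1 call in 10 members, where 9.20% of the 19009 genes with an adjusted p were called and 4.26% were called higher, so the number of calls among the members was near the background. Over all genes 810 were higher and 938 lower, and with TMM library sizes 1003 and 793.

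Against Con, the comparison of what differed after antibiotic and lipid together, Dusp7 was again the only member called. The log2 fold change was 0.66 with a standard error of 0.15, or 1.58-fold with a 95% interval of 1.29-fold to 1.94-fold (DESeq2 adjusted p = 0.000573), where 6.23% of the 17535 genes were called and 2.77% were called higher. Over all genes the calls for VanLip against Con were 485 higher and 607 lower, and with TMM library sizes 666 and 497. Both contrasts share the VanLip libraries and so are not independent. In the likelihood-ratio test for any difference among the 3 groups Dusp7 was likewise the only member called (DESeq2 adjusted p = 2.4e-06, background 11.8%). The Dusp7 call held without each library in turn and after fragments of the deeper libraries were thinned to the depth of the rest. It was lost against Con by edgeR (log2 fold change 0.67, adjusted p = 0.0504). Limma on log2(FPKM + 1) without a minimum mean called Dusp7 in neither contrast. With a minimum mean of 1 FPKM limma called Dusp7 against Van only. Over 21 alternatives the log2 fold change stayed between 0.66 and 0.89 against Van (adjusted p up to 0.0627, edgeR, DESeq2 or limma) and between 0.56 and 0.77 against Con (up to 0.146).

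Dusp6, the close relative of Dusp7 with the same cytoplasmic place and preference for ERK, did not pass the test. Its normalized count was 13246, 17590 and 15386 in VanLip beside 11403, 14182 and 15530 in Van and 14786, 16094 and 14410 in Con. The groups overlapped, and the interval of the difference from Van was 0.943-fold to 1.34-fold. On the FPKM scale Dusp6 was the more abundant of the pair, 58.3 ± 8.88 against 13.0 ± 1.76 in VanLip (SD, n = 3 each). The difference between the changes of the 2 genes was not tested.

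**Figure D2:**
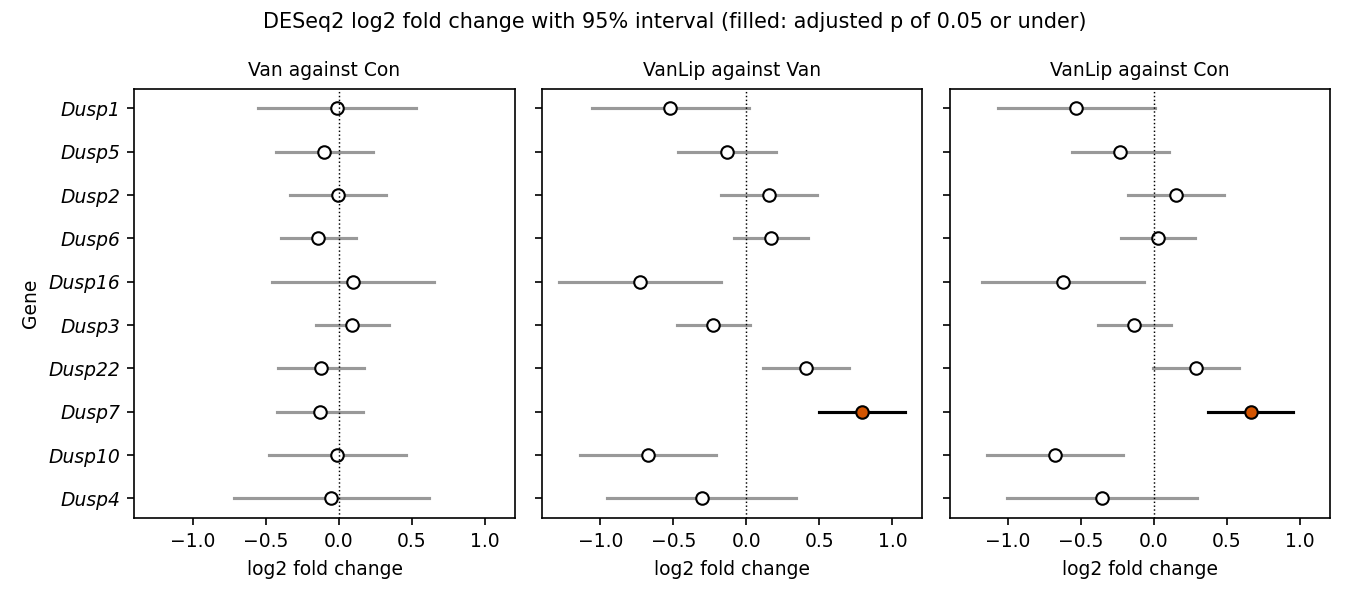
DESeq2 log2 fold change of each of the 10 genes in the 3 contrasts, with the 95% interval as a bar; filled points have an adjusted p of 0.05 or under. Dusp7 has the only filled points, at 0.79 for VanLip against Van and 0.66 for VanLip against Con, and no interval for Van against Con leaves 0 out.

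Both JNK and p38 phosphatases had lower values in VanLip that missed the threshold. Dusp10 had normalized counts of 1028, 825 and 720 in VanLip, 1955, 1136 and 1003 in Van and 1657, 1199 and 1268 in Con. VanLip lay wholly below Con, whereas its highest library was above the lowest Van library. The log2 fold changes were -0.67 against Van (standard error 0.24, DESeq2 adjusted p = 0.0513) and -0.68 against Con (0.24, DESeq2 adjusted p = 0.0608), and their intervals, 0.455-fold to 0.868-fold and 0.452-fold to 0.862-fold, left out 1. This gene stood at the threshold: against Van it was called at an adjusted p of 0.0486 when genes with fewer than 10 counts in 7 or more libraries were dropped, at 0.0489 with independent filtering at an alpha of 0.05, the setting run first, and at 0.0449 after GC and length correction, and it was not called by edgeR (0.148). Leaving out Van replicate 1 shrank the difference from Van to -0.32 (adjusted p = 0.428 by DESeq2), while leaving out Con replicate 1, Van replicate 2, Van replicate 3 or VanLip replicate 1 brought a call, with log2 values of -0.67, -0.79, -0.85 and -0.82. The antisense gene 1700056E22Rik overlaps Dusp10. Genes on the opposite strand also overlap Dusp16 (Gm36328), Dusp5 (AC137853.2) and Dusp3 (Gm20659 and Cfap97d1). The libraries were made with a stranded kit, but the counting was not stated to use strand.

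Dusp16, which also keeps JNK in check, had normalized counts of 14223, 18649 and 17562 in VanLip. Every one of these was below each Van library (39232, 25070 and 19107) and each Con library (27259, 22142 and 28374). The log2 fold change was -0.73 against Van (standard error 0.28, DESeq2 adjusted p = 0.0868) and -0.62 against Con (0.28, DESeq2 adjusted p = 0.196). In the fit of only VanLip and Con, where the spread of the Van libraries no longer enters, Dusp16 was called at a DESeq2 adjusted p of 0.000191 and Dusp10 at 0.00713, and without Van replicate 1 in the fit of all groups at 0.000567 and 0.00399. Both were also called against Con without Van replicate 3 (DESeq2 adjusted p = 0.00587 and 0.0334), and Dusp10 without VanLip replicate 1 (0.0223). The log2 fold change against Con was -0.62 for Dusp16 and -0.68 for Dusp10 in the fit of only VanLip and Con and in the fits without Van replicate 1 or 3, and -0.83 for Dusp10 without VanLip replicate 1. Against Van, Dusp16 was called without Van replicate 3 (-0.93, DESeq2 adjusted p = 2.85e-05) and shrank to -0.39 without Van replicate 1.

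**Figure D3:**
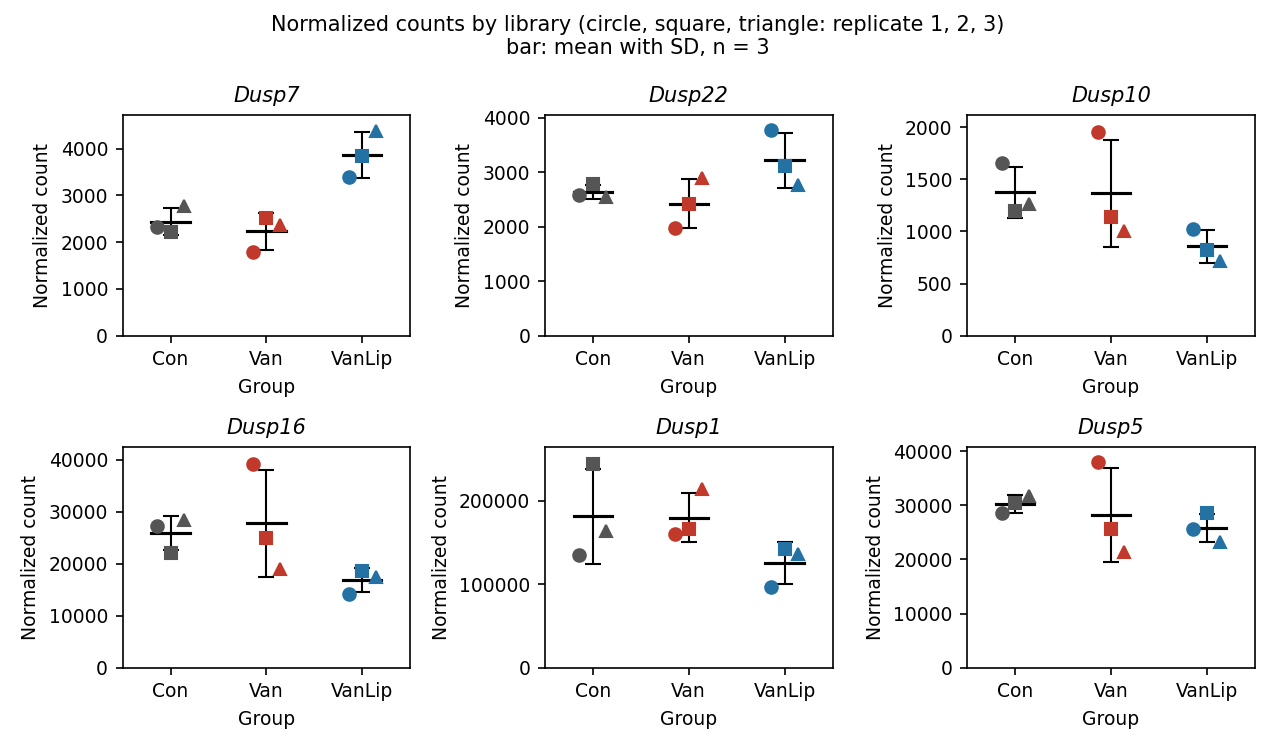
Normalized counts of Dusp7, Dusp22, Dusp10, Dusp16, Dusp1 and Dusp5 in each library by group, on linear axes from 0, with circles, squares and triangles for replicates 1, 2 and 3 and a bar for the mean with its SD (n = 3). The 3 VanLip libraries of Dusp7 lie at 3385 to 4370, above the 6 others, and Van replicate 1 of Dusp16 lies at 39232, away from its group.

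Of the nuclear inducible phosphatases none passed the test in either VanLip contrast. Dusp1 had normalized counts of 96842, 142159 and 136739 in VanLip, 159766, 165574 and 213720 in Van and 135365, 244282 and 163516 in Con. VanLip was below Van in every library, and overlapped Con only through Con replicate 1. The log2 fold change was -0.52 against Van (0.697-fold, 95% interval 0.480-fold to 1.01-fold, DESeq2 adjusted p = 0.27) and -0.53 against Con (0.692-fold, 0.476-fold to 1.005-fold, DESeq2 adjusted p = 0.287). It was called against Van in the fit of those groups alone, at an adjusted p of 0.0217 by DESeq2, and without Con replicate 1 or Con replicate 2 (0.0421 and 0.0153), and against Con without Con replicate 1 (-0.70, DESeq2 adjusted p = 0.0181).

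Dusp5 had 25633, 28497 and 23224 normalized counts in VanLip, all below the Con libraries at 28601, 30415 and 31762 and within the Van range of 37928, 25569 and 21297. Against Con it had a log2 fold change of -0.23 (DESeq2 adjusted p = 0.524) that did not pass the test. Dusp2 had 8903, 13680 and 10275 normalized counts in VanLip, 11205, 9690 and 8612 in Van and 11616, 8244 and 9769 in Con. The 3 groups overlapped, with VanLip at 1.11-fold against each and intervals of 0.887-fold to 1.40-fold and 0.884-fold to 1.39-fold. Dusp4 was counted at 67.3 to 134 in the 9 libraries and had the widest intervals, 0.516-fold to 1.27-fold against Van and 0.497-fold to 1.23-fold against Con. For this gene a difference of moderate size was not detectable with 3 libraries a group.

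The atypical phosphatases had differences of opposite sign against Van, neither of which passed the test. Dusp22, which acts upstream of JNK in lymphocytes and other cells, had normalized counts of 3774, 3125 and 2769 in VanLip, 1978, 2415 and 2891 in Van and 2585, 2789 and 2550 in Con. Its highest values were the first and second VanLip libraries, but Van replicate 3 reached above VanLip replicate 3, so the groups overlapped. The log2 fold change against Van was 0.41 (1.33-fold, 95% interval 1.08-fold to 1.63-fold, DESeq2 adjusted p = 0.0631), and it was called only with TMM library sizes (adjusted p = 0.0441 by DESeq2) and without Van replicate 3 or VanLip replicate 3 (0.56 and 0.51, DESeq2 adjusted p = 0.00518 and 0.0167). Dusp3 had normalized counts of 12985, 9795 and 9062 in VanLip, 13791, 12015 and 11482 in Van and 11437, 11939 and 11565 in Con. VanLip replicate 1 stood inside the Van range and the other VanLip libraries below it. Against Van it had a log2 fold change of -0.23 (DESeq2 adjusted p = 0.31) with an interval of 0.718-fold to 1.02-fold, and without VanLip replicate 1 it was called against both Van (-0.40, DESeq2 adjusted p = 0.000661) and Con (-0.31, DESeq2 adjusted p = 0.0261).

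Counted over the 10 members, 4 reached an unadjusted p under 0.05 for VanLip against Van, Dusp7, Dusp10, Dusp16 and Dusp22, where 15.5% of genes did, and 3 for VanLip against Con, Dusp7, Dusp10 and Dusp16, where 13.0% did. Groups did not overlap in 3 members against Van (25.4% of genes), 1 with VanLip above and 2 with VanLip below (13.0% and 12.4%), and in 4 against Con (23.1%), 1 above and 3 below (12.0% and 11.1%). The median log2 fold change of the members was -0.18 in both contrasts, beside 0.01 for all genes tested. Of the 7 monocyte markers 4 had VanLip wholly above Van: Ccr2, at 156 to 256 FPKM in VanLip against 70.4 to 98.2 in Van and 159 to 173 in Con, Ly6c2, at 399 to 451 against 268 to 388 and 377 to 414, Cx3cr1, at 130 to 166 against 91.5 to 117 and 116 to 125, and Itgam, at 192 to 239 against 174 to 183 and 200 to 214. VanLip and Van overlapped in Csf1r, Lyz2 and Fcgr1. Van lay wholly below Con in Ccr2, Itgam and Fcgr1, the last at 19.1 to 20.7 FPKM against 23.8 to 25.1. Van overlapped Con in Csf1r, Ly6c2, Cx3cr1 and Lyz2. Of the 3 red pulp macrophage markers Vcam1 had VanLip wholly below Van, at 130 to 173 FPKM against 189 to 238 and 132 to 167 in Con. With the erythroid sums of Van and VanLip above those of Con, these marker differences were not tested for their part in the phosphatase values. In bulk RNA fewer cells of a type and less RNA per cell cannot be told apart.

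Of the kinase genes whose products these phosphatases act on, Mapk14 and Mapk9 were called in at least 1 contrast. On the FPKM scale p38 alpha, encoded by Mapk14, was the most abundant of the 4 named here, at a mean of 115 in Con, 130 in Van and 111 in VanLip, followed by the ERK gene Mapk3, at 83.2, 86.2 and 92.9, and the JNK genes Mapk9, at 16.6, 13.7 and 14.7, and Mapk8, at 8.60, 9.03 and 7.77. Mapk14 was higher in Van than in Con, with a log2 fold change of 0.18 (DESeq2 adjusted p = 0.0195). It was lower in VanLip than in Van by 0.24 on the log2 scale (DESeq2 adjusted p = 0.000135). These contrasts share the Van libraries and so are not independent. Mapk9 was lower in Van than in Con by a log2 fold change of -0.26 (DESeq2 adjusted p = 0.0405). Both calls for Van against Con were lost by edgeR and without any 1 of the 6 Con and Van libraries, at log2 values of 0.15 to 0.19 for Mapk14 and -0.29 to -0.22 for Mapk9. Mapk3 and Mapk8 were called in no contrast, with log2 fold changes between -0.17 and 0.14, and the direction of Mapk3 for Van against Con turned with GC and length correction.

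Over 81 other genes of the pathway, in 7 lists of kinases, phosphatases, feedback inhibitors and immediate early genes, 2 were called higher and 4 lower in Van than in Con, where 2.27% and 2.06% of all genes were. Those higher were Mapk14 and Mknk2, a kinase activated by ERK and p38 that phosphorylates eIF4E (0.39, DESeq2 adjusted p = 0.000268). Those lower were Mapk9, the ERK-activated kinase Rps6ka3 (-0.25 on the log2 scale), the haematopoietic tyrosine phosphatase Ptpn7 (-0.50) and the ERK pathway inhibitor Spred2 (-0.64). Ptpn7, whose product dephosphorylates ERK and p38, was higher in VanLip than in Van by a log2 value of 0.60 (DESeq2 adjusted p = 0.000352). Its normalized count was 1668 ± 219 in VanLip, beside 1563 ± 114 in Con (SD, n = 3 each). The same Van libraries enter both contrasts, so the lower value in Van and the difference from VanLip are not independent. Without certain single libraries the calls of Rps6ka3 (Van replicate 2 or 3), Ptpn7 (Con replicate 1 or 2, Van replicate 1) and Spred2 (Con replicate 3, Van replicate 3) for Van against Con were lost, with log2 values over all fits without 1 library of -0.27 to -0.23, -0.56 to -0.40 and -0.79 to -0.48. The count for Van against Con fell to 1 of 81 with edgeR, which called 1.21% of all genes.

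For VanLip against Van 2 of the 81 were called higher and 10 lower (4.26% and 4.93% of all genes), and for VanLip against Con 2 higher and 8 lower (2.77% and 3.46%). With edgeR the totals were 6 and 2, where 5.07% and 1.78% of all genes were called. Immediate early genes are transcribed within minutes of MAP kinase activity and made up the largest group among them. Of 20 such genes, 1 was called higher and 5 lower in VanLip than in Van, with a median log2 fold change of -0.29 over the list. The gene called higher was Junb, which encodes an AP-1 subunit and is named here after its values were seen (0.33, DESeq2 adjusted p = 0.0298); its call was lost with edgeR, in other alternatives and without any 1 of Van replicates 1, 2 and 3 and VanLip replicates 1 and 2, at 0.23 to 0.36. The transcription factor genes Atf3 (-0.55, DESeq2 adjusted p = 1.06e-06), Fosb (-0.45), Jund (-0.50) and Egr3 (-0.94) fell; the Egr3 call was lost without Van replicate 1 or 2 or VanLip replicate 1 or 2, at -0.72 in the first case. Against Con 4 of the 20 were lower, Atf3 (-0.61, DESeq2 adjusted p = 5.25e-08) and Egr3 (-1.37, DESeq2 adjusted p = 0.000144) among them, and the list's median was -0.11. Also lower were the MAP3 kinase genes Map3k2 (-0.36 against Van and -0.30 against Con) and Map3k20 (-0.40 against Con), while Mapk7, which encodes ERK5, was higher against Con by a log2 value of 0.28 (DESeq2 adjusted p = 0.0148). The 4 nuclear inducible phosphatases, which are immediate early genes themselves, had a median of -0.22 against Van and -0.29 against Con with 0 called.

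**Figure D4:**
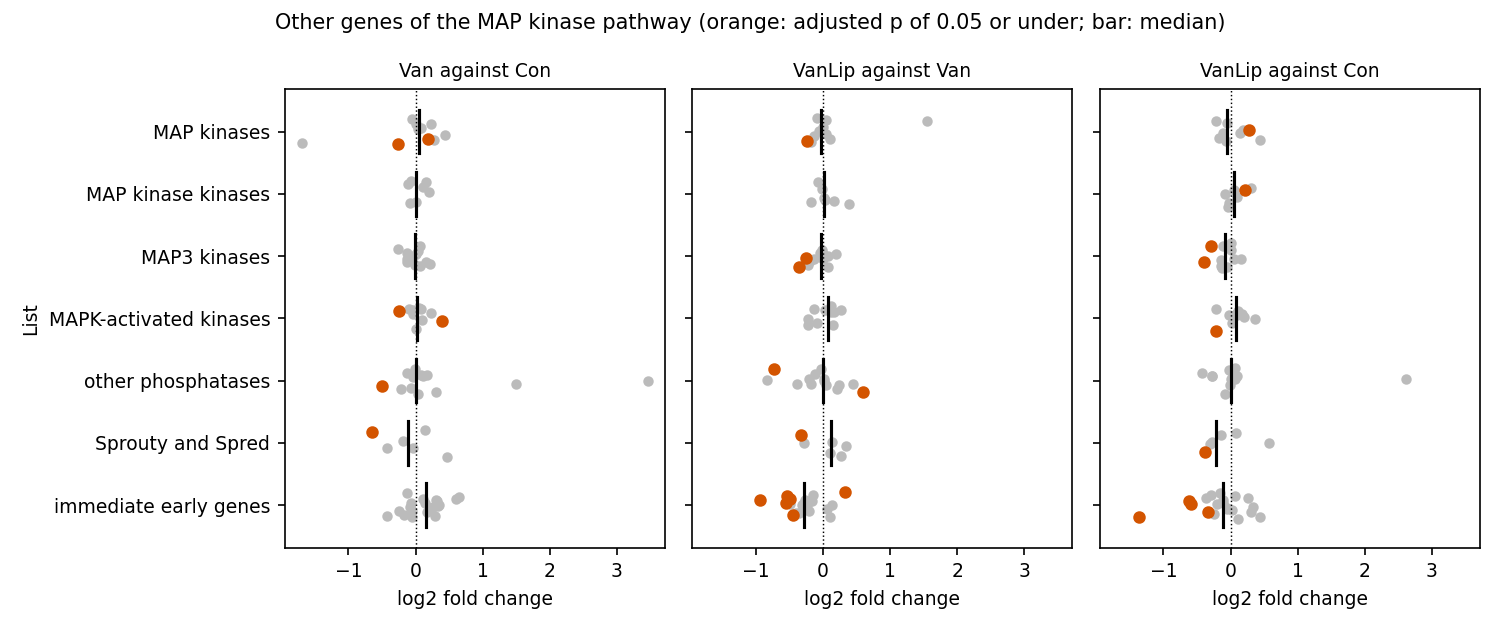
DESeq2 log2 fold changes of the other MAP kinase pathway genes with an adjusted p, by list, in the 3 contrasts; orange points have an adjusted p of 0.05 or under and vertical bars are list medians. The immediate early genes hold 6 of the 12 orange points for VanLip against Van, 5 of them below 0.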

How the data were processed

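Gene expression was measured in 9 libraries of poly(A) RNA, grouped by their labels. Per the labels and the study's methods, the authors aligned paired reads to GRCm38 with HISAT2 2.2.1, estimated FPKM values per gene with StringTie 2.1.3 (SAMtools 1.9) and deposited them. The authors also deposited expected counts from tximport, which need not be whole and are not normalized. The annotation release is not given in the sources used here; 99.0% of the detected identifiers matched GENCODE M21, which supplied coordinates.

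Expected counts were rounded and tested in R 4.3.3 with the DESeq2 1.42.0 Wald test (1 fit over the 9 libraries with group as its term, size factors by median of ratios) or its likelihood-ratio test, two-sided, with Benjamini-Hochberg adjustment over all genes, with calls at adjusted p values up to 0.05. Normalized counts are counts divided by the size factors. FPKM as deposited gave the levels. Independent filtering was run at an alpha of 0.05 first and then at the default of 0.1, which is reported because the study's methods name no other value; both results were known when this was decided. tximport assumes reads of 75 bases unless told otherwise, and the commonest count from 0.5 to 2.5 gave the size of 1 read, although the study's methods give the same read length for all libraries; this window was chosen after the data were seen. Replicates are separate mice, and their number limits the precision. The fits were also run on simulated counts, with the outcome not reported here, and no result rests on that run.

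All 10 members are named, and of the other pathway genes the substrates Mapk3, Mapk8, Mapk9 and Mapk14 and up to 6 called genes per contrast with the lowest adjusted p; 1 further substrate gene of this rule is not reported here. The members and lists were chosen with earlier results of these data known. Alternatives were edgeR 4.0.16, TMM library sizes, a minimum of 10 counts in 3 or more libraries, separate fits for each pair of groups, a replicate block, conversion to fragments, thinning to 19418575 fragments, limma 3.58.1 on quantile-normalized log2(FPKM + 1) or log2(FPKM + 0.1), with or without a minimum mean of 1 FPKM, and fits that left out 1 library. GC and length correction was added after the data were seen, when the alpha of 0.05 also became an alternative.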

Additional observations from a re-analysis of the deposited data

How the results depend on the processing

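Of the 10 members, Dusp7 kept its direction against Van and Con in all 21 alternatives and its call in 19 and 17 of them; the exceptions were limma on log2(FPKM + 1) and log2(FPKM + 0.1) in both and, against Con only, edgeR and limma with a mean FPKM of at least 1. No member was called for Van against Con except Dusp5 without Van replicate 1.

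Calls for VanLip against Van numbered 1 of 10 members as reported, 2 with TMM library sizes, with at least 10 counts in at least 3 libraries, in fits of only the groups compared, after GC and length correction and at an alpha of 0.05, 3 with a replicate block and 0 with limma on log2(FPKM + 1) and log2(FPKM + 0.1). Over all genes the calls for this contrast were 1748 as reported, 1796, 1798, 1492, 1798 and 1777 in the settings with 2 members, 1630 with the block, and 688 and 516 with limma. For VanLip against Con they went from 1 to 3 in fits of only the groups compared and with a replicate block, and to 0 with edgeR and all 3 limma fits, while all genes called went from 1092 to 799, 1157, 300, 237, 168 and 339. For any difference they went from 1 to 3 with a replicate block, 2 after GC and length correction and at an alpha of 0.05, and 0 with limma on log2(FPKM + 1) and log2(FPKM + 0.1), where all genes called went from 2191 to 1661, 2122, 2228, 572 and 330. Leaving out 1 library gave 0 to 1 members for Van against Con, 1 to 4 for VanLip against Van, the most without Van replicate 3, 1 to 3 for VanLip against Con and 1 to 4 for any difference, the most without Van replicate 1 or 3. Over all genes these fits called 406 to 923, 1124 to 1651 (1349 without Van replicate 3), 606 to 1276 and 1503 to 2207 (1719 and 1724 without Van replicates 1 and 3).

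Of the 81 pathway genes, 6 were called for Van against Con as reported, 1 with edgeR, 12 in fits of only the groups compared, and 1, 0 and 1 with limma on log2(FPKM + 1), on log2(FPKM + 0.1) and on genes averaging 1 FPKM or more, beside 803, 204, 951, 92, 17 and 90 of all genes. For VanLip against Van the 12 became 6 with edgeR and 3, 1 and 5 with those limma fits (1748 to 855, 688, 516 and 829 of all genes), and for VanLip against Con the 10 became 2 with edgeR, 5 in fits of only the groups compared and 1, 1 and 2 with limma (1092 to 300, 799, 237, 168 and 339). Leaving out 1 library gave 3 to 10, 8 to 14 and 3 to 14 pathway genes, the fewest when Con replicate 2 or any Van library was dropped (Van against Con), Van replicate 2 (VanLip against Van) or Con replicate 2 (VanLip against Con). The cause of these shifts was not tested.

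Signs that turned belonged to small differences. For Van against Con, Dusp1 went from -0.01 to 0.02 with a replicate block and 0.05 with each limma fit, Dusp4 from -0.05 to 0.01 with limma on log2(FPKM + 0.1), and Mapk3 from 0.04 to -0.01 after GC and length correction. Leaving out 1 library gave, for Van against Con, -0.18 to 0.27 in Dusp1, -0.12 to 0.13 in Dusp2, -0.20 to 0.15 in Dusp4, -0.37 to 0.07 in Dusp5, -0.23 to 0.01 in Dusp7, -0.36 to 0.17 in Dusp10, -0.23 to 0.31 in Dusp16, -0.27 to 0.01 in Dusp22, -0.07 to 0.09 in Mapk8 and -0.13 to 0.03 in Atf3. For VanLip against Van it gave -0.04 to 0.28 in Dusp2, -0.30 to 0.14 in Dusp5, -0.02 to 0.08 in Mapk9 and -0.00 to 0.06 in Rps6ka3, and for VanLip against Con -0.04 to 0.28 in Dusp2, -0.08 to 0.13 in Dusp6 and -0.02 to 0.15 in Ptpn7. Member levels moved by less than 1 SD with quantile-normalized FPKM.

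Replicate numbers name libraries and do not pair mice in the labels, and same-numbered libraries deviated from their group means with correlations of -0.06 to 0.12. The replicate block gave 0, 3 and 3 members for Van against Con, VanLip against Van and VanLip against Con, where it called 932, 1630 and 1157 of all genes against 803, 1748 and 1092 without it, those members called besides Dusp7 being Dusp1 and Dusp10. With 3 libraries a group, intervals for Dusp1, Dusp4, Dusp10 and Dusp16 stayed wide, and depth and read length cannot be separated from VanLip.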
